A study of Rattus norvegicus with 26 samples.

Results

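The comparison set the early response of a pair of clonal cell lines side by side: the change of Cl19 from d0 to d2 of smooth muscle differentiation minus the change of 3c3 over the same days, gene by gene. It rested on 11 of the 26 arrays of the series. Line and day gave 12, and 1 array of Cl19 at d2 was left out for its values, which leaves 3 of Cl19 at d0, 2 of Cl19 at d2, 3 of 3c3 at d0 and 3 of 3c3 at d2. Both lines were clones of rat multipotent adult progenitor cells (rMAPC) that express Oct4, labelled as from bone marrow of female Fischer rats, with the age labelled 3 week for Cl19 and E18 for 3c3. Whether the age or the tissue label of 3c3 is right is open. Each line is a single clone, so line, age of the source and clone cannot be told apart. From d0 the cells were kept in basal rMAPC medium with TGF-β and PDGF-BB, and RNA was hybridised to 1-colour arrays at d0, d2, d4 and d6 in triplicate. The d4 and d6 arrays of both lines were used to say whether a change came later in the other line. They also entered the common estimate of the spread in the main fit. The 2 arrays of commercial RNA from cultured rat aortic smooth muscle cells entered that estimate only. Values are quantile-normalized log2 intensities, and between 49.5% and 58.3% of probes were well above background on each of the arrays of d0 and d2.

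TGF-β and the related ligands Nodal and activin act through paired serine/threonine kinase receptors and Smad proteins, and the Lefty proteins are secreted inhibitors of Nodal that its signalling switches on. PDGF-BB acts through receptor tyrosine kinases on mesenchymal cells. Smooth muscle differentiation is known for the stepwise gain of contractile proteins under serum response factor and its partner myocardin, and rat MAPC are known to hold Oct4 together with factors of the primitive endoderm.

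The array labelled Cl19 d2 replicate 1 stood apart from its group and was left out because it resembled 3c3. That choice used the measured outcome and can by itself widen the difference between the lines, though not for every gene. The counts of called differences and of their classes are therefore also given with the array kept. The counts for the change within Cl19 are not. On 33 probes that differed between the lines at d0, d4 and d6 (29 higher in Cl19 and 4 higher in 3c3), each d2 array was placed on a scale from the 3c3 mean (0) to the Cl19 mean (1). The array labelled Cl19 d2 replicate 1 lay at -0.155, the other Cl19 d2 arrays at 0.626 and 0.697, and the 3c3 d2 arrays at -0.152, -0.151 and -0.226. It was nearer the Cl19 mean on 2 of the 33 probes, against 24 and 27 for the other Cl19 d2 arrays and 2, 2 and 0 for the 3c3 d2 arrays. The d0 arrays, placed on 966 probes that differed at d4 and d6, lay near 0 in both lines, at -0.0617, -0.0817 and -0.0596 in Cl19 and -0.101, -0.114 and -0.104 in 3c3, so at d0 this scale does not tell the lines apart. The root mean square distance of this array over all tested probes was 0.387, 0.548 and 0.434 log2 to the 3c3 d2 arrays, against 0.925 and 0.881 to the other Cl19 d2 arrays. Cdkn1c, an inhibitor of cyclin-dependent kinases, shows the position for a gene that differs between the lines at every day: it measured 14.37, 14.52 and 14.78 in Cl19 at d0 and 9.44, 9.28 and 9.03 in 3c3 at d0. At d2 it measured 8.01 on the array in question, 10.98 and 11.47 on the other Cl19 arrays, and 8.27, 7.58 and 7.86 in 3c3. The array thus lay within the range of the 3c3 d2 arrays and below the other Cl19 d2 arrays, and why it did so was not tested.

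**Figure D1:**
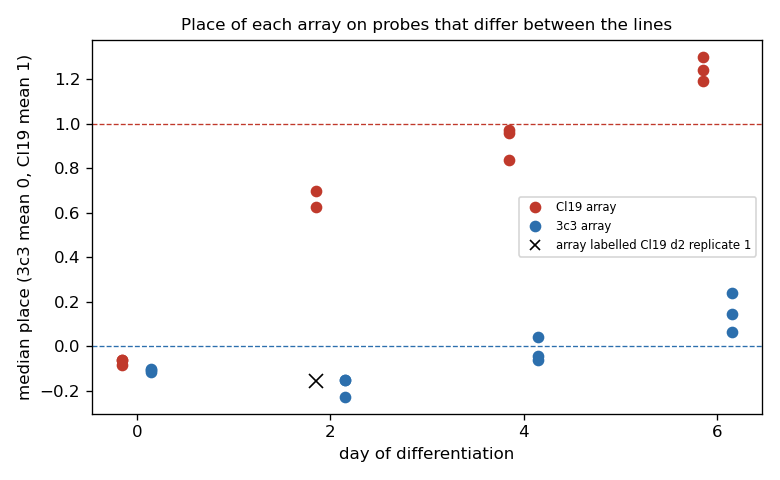
Place of each array of d0, d2, d4 and d6 between the lines, as the median over probes that differ between them (0 is the 3c3 mean and 1 the Cl19 mean; each point is 1 array). The array labelled Cl19 d2 replicate 1 (black cross) lies at -0.155 beside the 3c3 d2 arrays, while the other Cl19 d2 arrays lie at 0.626 and 0.697. At d0 both lines lie near 0.

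Both lines changed widely by d2. In Cl19 2952 probes rose (12% of 24673 tested) and 3169 fell (12.8%), and in 3c3 2554 rose (10.4%) and 2408 fell (9.76%), at an adjusted p below 0.05 from limma. The test of the difference itself called 862 probes: the change was larger, that is more positive, in Cl19 for 535 (2.17%) and smaller for 327 (1.33%). With the array in question kept, 34 (0.138%) and 43 (0.174%) were called. The 77 probes called with it kept were all among the 862. On 671 of the 862 the change of that array from d0 of its own slide was nearer the mean change of 3c3 than that of the other Cl19 slides. The difference was larger in size with the array left out than kept on 814 of the 862 and smaller on 48. The 862 probes were chosen without it. The p-values measure the spread between these arrays, which the study calls biological replicates. In these bulk samples fewer cells of a type and less RNA per cell cannot be told apart.

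The counts leaned on single arrays. Without Cl19 d2 replicate 2 the larger and smaller changes numbered 325 and 136, and without replicate 3 they numbered 339 and 195. The smaller changes numbered 200 without Cl19 d0 replicate 3, 207 without 3c3 d0 replicate 3 and 206 without 3c3 d2 replicate 3. The slide of 3c3 replicate 3 had a higher background, and without its 4 arrays 319 larger and 123 smaller changes were called. Arrays of the same line and replicate number lay together on a slide, with all 4 days. With the slide as a block 775 larger and 571 smaller changes were called. On the 11 arrays alone 1101 larger and 1094 smaller changes were called, and that fit took its spread from d0 and d2 only. The median SD per group was 0.176 to 0.233 log2 at d0 and d2 and 0.309 to 0.324 at d4 and d6. The lines were scanned on separate days, so a difference in level between lines and an effect of the scan cannot be told apart, whereas each change from d0 set arrays of a line against others of that line with the same scan day.

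Genes that rose in Cl19 by d2 and far less in 3c3 led the larger changes, with Lefty2, Gsc and Cxcr4 among the 8 largest that the naming rule gave on values floored at each array's lowest signal above background. Lefty2, the secreted Nodal inhibitor (chr13:96626239-96626298 in rn4), measured 3.65, 2.88 and 3.67 in Cl19 at d0 and 14.01 and 13.87 at d2; in 3c3 it measured 4.24, 4.16 and 4.09 at d0 and 7.75, 6.72 and 7.43 at d2. It rose 1490-fold in Cl19 and 8.81-fold in 3c3, a difference of changes of 7.40 log2 (SE 1.16, adjusted p = 0.000947). The Cl19 d2 arrays stood above every 3c3 d2 array, and the left-out array, at 7.55, lay among the 3c3 arrays. With it kept the difference was 5.27 (adjusted p = 0.316). By d6 Lefty2 had risen 242-fold in 3c3.

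Gsc, the homeobox gene goosecoid of the organizer and mesendoderm (chr6:128527461-128527520), measured 6.08, 5.45 and 5.95 in Cl19 at d0 and 12.09 and 11.63 at d2, against 6.83, 6.28 and 6.26 and then 5.65, 5.16 and 5.44 in 3c3. It rose 65.6-fold in Cl19, its change in 3c3 was -1.04 log2 (adjusted p = 0.123), and the difference was 7.07 (SE 0.679, adjusted p = 2.12e-05; 5.002 and 0.213 with the left-out array, which measured 5.65). The 3c3 arrays were no higher at d2 than at d0, and rose 4.1-fold by d6. Cxcr4, the receptor of the chemokine Cxcl12 (chr13:41309106-41309165), was at background in both lines on all d0 arrays. It reached 10.18 and 10.32 in Cl19 at d2 and 3.41, 2.96 and 3.77 in 3c3, at least 237-fold and at least 1.64-fold above d0, with a fitted difference of 6.90 (SE 0.893, adjusted p = 0.000193; 4.32 and 0.583 with the left-out array). These bounds set the bright group against the lowest signal well above background on each dim array.

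The other leading genes with larger changes had d0 levels near background in at least 1 line. Rgs8, a regulator of G protein signalling, reached 9.01 and 8.71 in Cl19 at d2, at least 90.6-fold above d0, and in 3c3 at d2 only 1 of 3 arrays stood above background (fitted difference 6.51, adjusted p = 5.41e-05). Ntm, a neural cell adhesion protein, reached 8.12 and 8.62 in Cl19, at least 64.6-fold above d0, and was not well above background in 3c3 at either day (6.33, adjusted p = 0.00351). Crispld2, a secreted protein, rose at least 157-fold in Cl19 and at least 2.33-fold in 3c3 (5.80, adjusted p = 0.000441). Pdlim3, an actin-binding PDZ and LIM protein of muscle, rose at least 282-fold and at least 2.7-fold (5.66, adjusted p = 0.00143). Jakmip1 moved in opposite directions, from below background to 6.46 and 5.93 in Cl19, and from 4.56, 4.75 and 4.46 to below background in 3c3. It rose at least 14.2-fold in Cl19 and fell at least 4.14-fold in 3c3, and the fitted difference of 8.91 (adjusted p = 7.35e-05; 7.49 and 0.018 with the left-out array) was 5.88 (adjusted p = 0.000526) on floored values. On all 8 of these genes the left-out array was nearer the 3c3 d2 mean than the Cl19 d2 mean. The rule that chose them asked that the changes of the Cl19 slides lie beyond those of all 3c3 slides, so that the lack of overlap is no finding. The same holds for the leading smaller changes and for the genes named by class below.

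The leading genes with smaller changes, 7 of which are given here, rose more in 3c3 or fell more in Cl19, and Psmb9 rose in 3c3 while it fell in Cl19. Lgals2, a galactose-binding lectin (chr7:116811860-116811919), measured 7.002, 7.17 and 7.43 in Cl19 at d0 and 11.35 and 11.85 at d2; in 3c3 it measured 3.28, 4.01 and 3.63 at d0 and 12.39, 11.99 and 12.08 at d2. It rose 21.1-fold in Cl19 and 366-fold in 3c3 (difference -4.12, SE 0.794, adjusted p = 0.00501; -3.99 and 0.0221 with the left-out array). The lines stood far apart at d0, with Cl19 the higher, and at d2 every 3c3 array lay above the Cl19 arrays used, by less than the gap at d0. The call was lost with normexp background correction (-2.09, adjusted p = 0.091), and another probe of the gene gave -1.77 (adjusted p = 0.104). Eps8l3, an adaptor of actin regulation, followed the same course, rising 25.8-fold in 3c3, with a change of 1.36 (adjusted p = 0.0718) in Cl19 (difference -3.33, adjusted p = 0.0112). Its call was lost without Cl19 d2 replicate 2 (adjusted p = 0.1) and with normexp (0.0673).

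Htr3a, a serotonin-gated channel, fell at least 68-fold in Cl19 and 6.76-fold in 3c3 (-3.33, adjusted p = 0.0145), and P2rx2, an ATP-gated channel, fell 14.2-fold in Cl19 (-3.23, adjusted p = 0.00645). The Htr3a call was lost without Cl19 d2 replicate 3 (adjusted p = 0.133) and without the slide of higher background (0.056). Lyve1, a hyaluronan receptor of lymphatic endothelium and macrophages, fell at least 15-fold in Cl19 to below background (-2.90, adjusted p = 0.0091; -2.87 and 0.0312 with the left-out array). Its call was lost without Cl19 d2 replicate 2 (adjusted p = 0.0796), while 3c3 showed it above background at d0 on 2 of 3 arrays and at d2 on none. Tnfrsf14 and Psmb9 also belong here and are described with their classes.

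**Figure D2:**
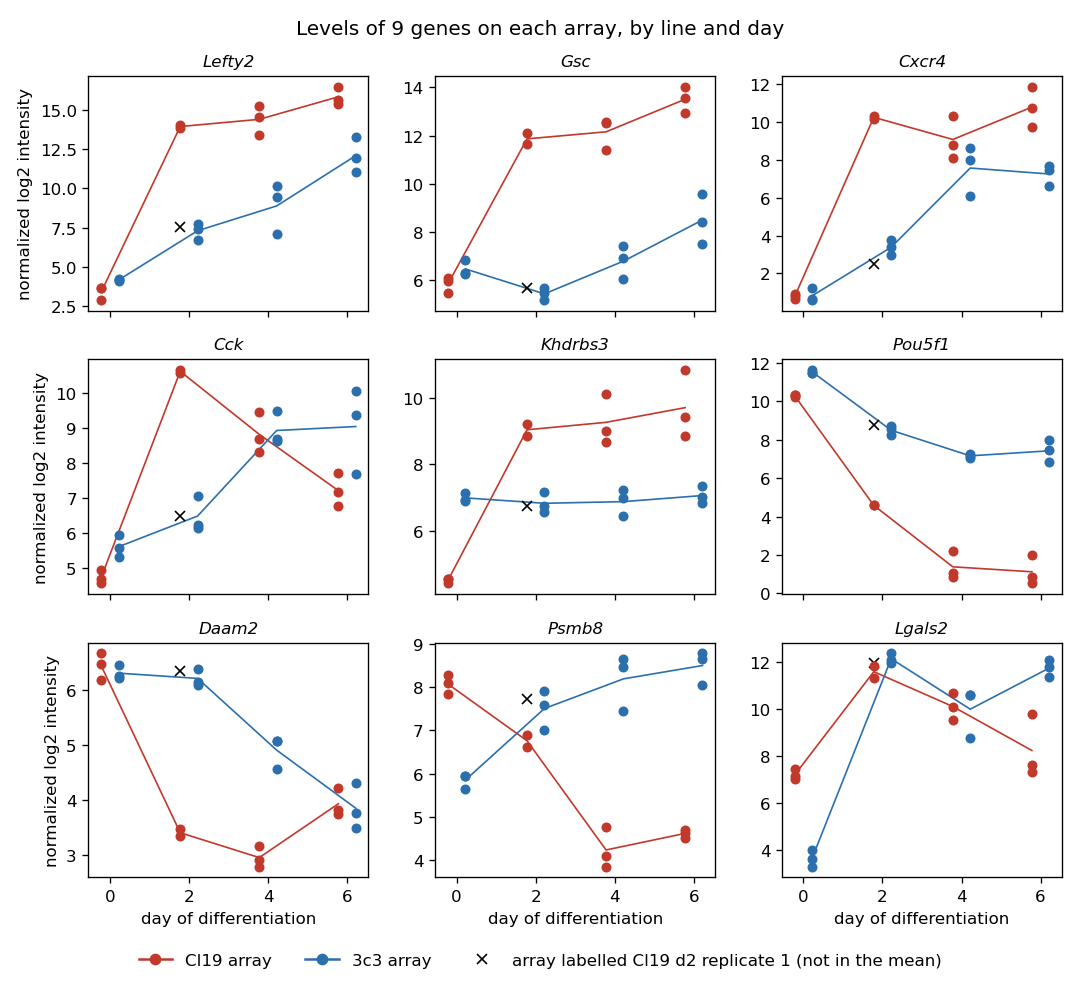
Normalized log2 intensity of 9 genes on each array (points) against day of differentiation, for Cl19 (red) and 3c3 (blue), with lines through the group means. Lefty2 stands at 14.01 and 13.87 in Cl19 at d2 against 7.75, 6.72 and 7.43 in 3c3, and the array labelled Cl19 d2 replicate 1 (black cross, not in the mean) stands at 7.55.

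A change was classed as earlier in a line when the difference at d2 was called, that line's d2 change was called in the same direction, the other line reached a called change in that direction at d6 but not at d2, and the difference at d6 was not called that way. It was classed as present in a line and not the other when the differences at d2 and d6 and that line's d2 and d6 changes were called in 1 direction and none of the other line's changes was. The days share their d0 arrays, so the classes describe these arrays and the d2 and d6 contrasts are not independent. The classes held 325 of the 862 probes, and 537 belonged to none.

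Changes that came earlier in Cl19 numbered 46 (0.186% of tested probes), of which 40 rose and 6 fell. With the left-out array kept 1 was in this class (0.00405%), and without Cl19 d2 replicate 2 the count was 24. Cck, the peptide hormone cholecystokinin (chr8:126492829-126492888), measured 4.55, 4.68 and 4.93 in Cl19 at d0, 10.65 and 10.57 at d2, and 6.76, 7.16 and 7.70 at d6. In 3c3 it measured 5.56, 5.31 and 5.93 at d0, 6.23, 6.14 and 7.06 at d2, and 10.04, 7.69 and 9.37 at d6. It rose 59.2-fold in Cl19 by d2 and 10.8-fold in 3c3 by d6, with a difference of 5.01 at d2 (SE 0.679, adjusted p = 0.000278; 3.64 and 0.219 with the left-out array) and -0.95 at d6 (adjusted p = 0.383). Cck was thus highest at d2 in Cl19 and at d4 and d6 in 3c3, and the left-out array, at 6.49, lay among the 3c3 arrays. Fbln2, an extracellular matrix glycoprotein, rose 20.1-fold in Cl19 by d2 and at least 9.67-fold in 3c3 by d6 (difference at d2 5.33, adjusted p = 0.000126). Cd93, a membrane receptor of endothelial and myeloid cells, rose at least 25.1-fold by d2 and at least 9.04-fold by d6 (4.495, adjusted p = 0.00608), but lost the call without the slide of higher background (adjusted p = 0.0682). Matn4, a matrix adaptor protein, rose at least 11.7-fold and at least 2.48-fold (3.84, adjusted p = 0.0104), and lost it without Cl19 d2 replicate 2 (adjusted p = 0.0738).

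Of the falls that came earlier in Cl19, Daam2, a formin of the Wnt pathway (chr9:6755869-6755928), was the largest. It measured 6.68, 6.19 and 6.48 in Cl19 at d0 and 3.48 and 3.34 at d2, whereas 3c3 measured 6.46, 6.23 and 6.26 at d0, 6.40, 6.10 and 6.16 at d2, and 4.31, 3.49 and 3.77 at d6. It fell 8.23-fold in Cl19 by d2 and at least 4.98-fold in 3c3 by d6 (difference at d2 -2.94, SE 0.303, adjusted p = 3e-05; -1.96 and 0.388 with the left-out array). The Cl19 d2 arrays used lay below all 3c3 d2 arrays, and the left-out array, at 6.36, lay in the 3c3 range. By d6 the lines overlapped. Myo10, an unconventional myosin of filopodia, fell 1.95-fold in Cl19 by d2 and 2.36-fold in 3c3 by d6 (-1.34, adjusted p = 0.00354). Tmem263 and Sipa1l1 had smaller differences (-1.01 and -0.68), and their calls were lost on leaving out any of 8 and of 7 single arrays, respectively.

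Changes present in Cl19 and not in 3c3 through d6 numbered 186 (0.754%), with 97 larger and 89 smaller. With the left-out array kept 20 were called (0.0811%), and the count was 102 without the slide of higher background, 96 and 104 without Cl19 d2 replicates 2 and 3, and 121 without Cl19 d0 replicate 2 or 3. Khdrbs3, an RNA-binding regulator of splicing (chr7:106614617-106614676), measured 4.57, 4.55 and 4.42 in Cl19 at d0 and 9.22 and 8.85 at d2, against 7.15, 6.88 and 6.94 and then 7.16, 6.56 and 6.75 in 3c3. It rose 23-fold in Cl19 (difference 4.68, SE 0.59, adjusted p = 0.000153; 3.92 and 0.0238 with the left-out array). Its change in 3c3 was -0.16, -0.11 and 0.07 at d2, d4 and d6 (adjusted p = 0.851, 0.858 and 0.901), and Cl19 passed from the lower to the higher line between d0 and d2. A2m, the protease inhibitor α2-macroglobulin (chr4:158153318-158153377), rose at least 6.82-fold in Cl19 and fell at least 4.66-fold in 3c3 by d2 (5.98, adjusted p = 8.64e-05; 5.19 and 0.0114 with the left-out array), but was not called with normexp (1.08, adjusted p = 0.112). Elavl4, a neuronal RNA-binding protein, rose 11.9-fold (4.91, adjusted p = 0.000824). Tmem130 rose at least 16.8-fold (4.55, adjusted p = 0.0122) and was lost without Cl19 d2 replicate 3 (adjusted p = 0.0771) and without the slide of higher background (0.081).

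Among the leading falls of this class were those of Pi16, Capn6 and Tnfrsf14. Pi16, a peptidase inhibitor, fell 4.68-fold in Cl19 by d2 and 19.5-fold by d6 and rose 4.3-fold in 3c3 by d6 (difference at d2 -2.94, adjusted p = 0.00269; -2.55 and 0.0478 with the left-out array). Capn6, a microtubule-associated calpain, fell 5.12-fold by d2 and at least 59.2-fold by d6 in Cl19 (-2.90, adjusted p = 0.000513; -2.64 and 0.0136 with the left-out array), and its changes in 3c3 did not pass the test at any day. Tnfrsf14, a receptor of the TNF family, was 4.38, 3.59 and 3.99 in Cl19 at d0 and below background at d2, while 3c3 was below background at d0 and 4.32, 3.55 and 3.54 at d2 (-3.89, adjusted p = 0.00587). Its change in 3c3 at d2 did not pass the test (1.17, adjusted p = 0.125).

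Changes that came earlier in 3c3 numbered 10 (0.0405%), with 4 falling and 6 rising in 3c3. With every adjusted p of the class replaced by its unadjusted p, 36 were in it with the array in question kept and 59 with it left out. At adjusted p, 0 (0%) were in it with that array kept in the limma fit. The count was 27 with the slide as a block, 5 without the slide of higher background, 2 and 6 without Cl19 d2 replicates 2 and 3, and 5 without 3c3 d2 replicate 2 or 3. Rtn4rl1, a receptor of the Nogo family, fell at least 6.24-fold in 3c3 by d2 and 2.93-fold in Cl19 by d6 (difference at d2 3.23, adjusted p = 0.00505). Col9a3, a chain of type IX collagen, measured 5.66, 5.37 and 5.35 in 3c3 at d0 and 3.83, 3.73 and 3.95 at d2, and Cl19 measured 6.62, 6.49 and 6.65 at d0 and 6.87 and 6.64 at d2 (1.80, adjusted p = 0.0124). The lines overlapped at d6, and the Col9a3 call was lost without Cl19 d2 replicate 2 (adjusted p = 0.0813) and without the slide of higher background (0.0684). Stoml1 and Lcmt1 rose in 3c3 by d2 and in Cl19 by d6 (-0.71 and -0.67, adjusted p = 0.0402 and 0.0409). The rise of Lcmt1 in 3c3 was seen at d2 only (0.89, then 0.07 at d4 and 0.22 at d6, adjusted p = 0.685 and 0.128), while in Cl19 it was 0.55 at d6. They lost their calls on leaving out any of 8 (Stoml1) and any of 11 (Lcmt1) single arrays. Of these genes none was called with the left-out array kept.

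Changes present in 3c3 and not in Cl19 numbered 83 (0.336%), of which 19 fell and 64 rose in 3c3. With the left-out array kept there were 17 (0.0689%). The count was 155 with the slide as a block and 27 without the slide of higher background. It was 39 and 41 without Cl19 d2 replicates 2 and 3, 55 and 50 without Cl19 d0 replicates 2 and 3, 54 without 3c3 d0 replicate 3, and 53 and 49 without 3c3 d2 replicates 1 and 3. Psmb8 and Psmb9, neighbouring genes for catalytic subunits of the immunoproteasome, rose in 3c3 and fell in Cl19. Psmb8 (chr20:4787980-4788039) measured 5.65, 5.95 and 5.95 in 3c3 at d0 and 7.60, 7.01 and 7.91 at d2, against 8.10, 7.85 and 8.29 and then 6.90 and 6.62 in Cl19. It rose 3.16-fold in 3c3 and fell 2.49-fold in Cl19 (difference -2.98, SE 0.446, adjusted p = 0.000637; -2.65 and 0.018 with the left-out array), so that the higher line at d0 was the lower at d2. Psmb9 rose 3.08-fold in 3c3 and fell 2.92-fold in Cl19 (-3.17, adjusted p = 0.00354; -2.83 and 0.0368 with the left-out array). Aebp1, a secreted carboxypeptidase-like protein of connective tissue, rose 3.15-fold in 3c3 by d2 and 22.8-fold by d6 and fell 2.46-fold in Cl19 by d2 (-2.96, adjusted p = 0.003; -2.75 and 0.0221). Phactr1, a regulator of actin, rose 4.21-fold in 3c3 (-2.70, adjusted p = 0.0442) and lost the call on leaving out any of 11 single arrays.

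Of the genes that fell in 3c3 and not in Cl19, Sik1, a salt-inducible kinase, measured 9.77, 9.33 and 9.33 in 3c3 at d0 and 7.69, 7.37 and 7.41 at d2, and in Cl19 6.94, 7.08 and 6.94 and then 8.74 and 7.93. It fell 3.96-fold in 3c3 and rose 2.54-fold in Cl19 (difference 3.33, SE 0.467, adjusted p = 0.000368; 3.12 and 0.00723 with the left-out array). The lines exchanged places between d0 and d2. Celsr2, a cadherin of planar cell polarity, fell 2.58-fold in 3c3 and rose 4.09-fold in Cl19 (3.398, adjusted p = 0.00415), whereas its other tested probes gave 0.02 and 0.50 and were not called. Elavl2, a relative of Elavl4, fell 5-fold in 3c3 (2.94, adjusted p = 0.0265) and lost the call on leaving out any of 8 single arrays. Over the 85 genes named, 24 had several tested probes, of which 10 had probes that differed in their call and 0 had probes that differed in sign.

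The named genes with a called difference numbered 74. With the left-out array kept 12 were also called: A2m, Aebp1, Capn6, Flt1, Jakmip1, Khdrbs3, Lgals2, Lyve1, Pi16, Psmb8, Psmb9 and Sik1. Of the 74, 48 were called without the slide of higher background, 73 with the slide as a block and 43 in each of 11 fits that left out 1 array of d0 or d2. Without the slide of higher background no difference changed sign, with -2.60 for Pou5f1 (-2.66 with it), 2.91 for Fzd5 (2.97) and -1.57 for Fgb (-2.004). The calls lost there were those of Htr3a, Cd93, Tmem263, Sipa1l1, Tmem130, Col9a3, Stoml1, Lcmt1, Elavl2, Phactr1, Pou5f1, Sox4, Pmepa1, Id3, Fzd5, Fzd7, Fgfr2, Lamb1, Fgb, Tmprss2, Spon2, Cdkn2a, Cdkn1c, Ier2, Tubb3 and Nes. On values without normalization Tmem263, Stoml1, Lcmt1, Phactr1, Pou5f1, Fgb, Ier2 and Nes lost theirs. With normexp Lgals2, Eps8l3, A2m, Phactr1, Pdgfb, Fzd7 and Fgb did, and with no filter on dim probes Phactr1, Fzd7, Fgfr2, Lamb1, Fgb, Cdkn1c and Nes. Scaling to the 75th percentile ended the calls of Sox4, Tagln, Id3, Fgb, Tmprss2 and Nes, and floored values those of Pdgfb, Fzd7 and Fgb.

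Members of gene lists were counted beside the background of 327 larger (2.78%) and 218 smaller (1.85%) among 11763 genes by their brightest probe, whose median difference was -0.03 log2. With the left-out array kept 24 and 35 of these genes were called, and of the list members Flt1 only. Among ligands, receptors, antagonists and feedback genes of the TGF-β and Nodal pathway, 3 of 28 had a larger change in Cl19 and 0 a smaller one in the limma test (median 0.08). They were Lefty2, the feedback gene Pmepa1, which rose 17.2-fold in Cl19 (difference 3.44, adjusted p = 0.00644), and the activin receptor Acvr2b, which rose 2.02-fold (1.25, adjusted p = 0.00223). Pmepa1 was lost without Cl19 d2 replicate 2 (adjusted p = 0.0609) and without the slide of higher background (0.0546). The median of 5 PDGF ligands and receptors was 0.88, that of the dim Pdgfrb, and on floored values it was that of Pdgfra (0.11). Of the 5, Pdgfb was called as larger in Cl19 (2.52, adjusted p = 0.0149). It reached only 2.95 and 3.13 in Cl19 at d2, at least 1.6-fold above d0, was not well above background in 3c3, and was not called on floored values (0.81, adjusted p = 0.866), with normexp (0.227) or without Cl19 d2 replicate 2 or 3.

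In the Wnt and FGF list 7 of 24 had a larger change in Cl19 (29.2%; median 1.38), and 0 a smaller one. The Wnt receptors Fzd5 and Fzd1 measured 11.83 and 11.69 (Fzd5) and 8.10 and 7.87 (Fzd1) in Cl19 at d2. Fzd5 rose 33.1-fold in Cl19 and 4.21-fold in 3c3 (difference 2.97, adjusted p = 0.00645), and Fzd1 rose 4.23-fold in Cl19 and fell 2-fold in 3c3 (3.08, adjusted p = 0.00127). The Fzd5 call was lost without the slide of higher background (adjusted p = 0.0643). Fgfr2, a receptor of FGF ligands, fell 4.09-fold in 3c3 (2.31, adjusted p = 0.0321), but its 3 other probes were not called and leaving out any of 9 single arrays ended the call. Fzd7 came up from background in Cl19 and its call (2.95, adjusted p = 0.0484) was lost on leaving out any of 11 single arrays and on floored values (1.22, adjusted p = 0.577). The other 3 called members lay beyond the 4 that the naming rule takes from a list and were added after their values were seen: the ligand Fgf10 (1.94, adjusted p = 0.0237), the feedback gene Spry1 (1.73, adjusted p = 0.00123) and the ligand Fgf5 (2.17, adjusted p = 0.000111). Fgf5 reached only 2.67 in Cl19 at d2, with means of 0.36 to 0.58 in the other groups of d0 and d2, and like Fzd7 was not called on floored values (0.44, adjusted p = 1). Single arrays are not given for these 3. In the BMP list 3 of 15 were larger and 0 smaller (median 0.48). The ligand Bmp6 went the other way without a call (-2.604, adjusted p = 0.0523), and passed the limma test as smaller on floored values (-2.829, adjusted p = 0.0144). The ligand Bmp4 rose 12-fold in Cl19 and 2.23-fold in 3c3 (2.43, adjusted p = 0.00125), and the BMP target Id3 rose 2.38-fold in Cl19 (1.76, adjusted p = 0.0185). The BMP-binding protein Bmper fell 6.33-fold in Cl19 and at least 43.2-fold in 3c3 (3.02, adjusted p = 0.00178). Id3 was lost without Cl19 d2 replicate 2 or 3, 3c3 d2 replicate 2 or 3c3 d0 replicate 3, and with scaling to the 75th percentile (adjusted p = 0.0649).

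Of 18 mesendoderm and primitive streak factors 2 had a larger change in Cl19 (11.1%; median 0.515). Beside Gsc, the homeobox factor Otx2 measured 6.83, 6.75 and 6.75 in Cl19 at d0 and 14.19 and 13.94 at d2, and 6.04, 5.63 and 6.00 and then 9.24, 8.54 and 8.85 in 3c3. It rose 156-fold in Cl19 and 7.91-fold in 3c3 (difference 4.30, SE 0.743, adjusted p = 0.00221; 2.54 and 0.778 with the left-out array). At d2 Otx2 was high on the Cl19 arrays used and on no 3c3 array, and the left-out array measured 8.77. Mixl1 of the same list was not called (4.11, adjusted p = 0.062), but passed the limma test on floored values (4.575, adjusted p = 0.000399). On floored values the list median lay between Cited1 (0.19) and Cdx2 (0.23). Of 21 primitive endoderm factors and matrix genes 0 were larger and 2 smaller (9.52%; median -0.67). These were the basement membrane genes Sparc, which fell 2.08-fold in Cl19 (-1.22, adjusted p = 0.000603), and Lamb1, which fell 2.92-fold (-1.21, adjusted p = 0.0402) and was lost on leaving out any of 10 single arrays. Neither passed the test at d2 in 3c3, where the changes were 0.16 and -0.33 (adjusted p = 0.406 and 0.324).

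Of 19 visceral endoderm carrier proteins 2 were larger and 1 smaller (median -0.32). By d2 a rise was called for 9 of them in Cl19 and for 13 in 3c3. The uncalled differences went both ways, from -3.15 for Mttp (adjusted p = 0.0625) and -1.98 for Apoa2 (0.33) to 3.37 for Ttr (0.13). Afp, α-fetoprotein, rose at least 134-fold in Cl19 by d2 and 2.99-fold in 3c3 (difference 5.49, adjusted p = 0.000637), and Apob, the core protein of low-density lipoprotein, rose at least 384-fold and at least 16-fold (4.22, adjusted p = 0.00891). Apob was lost without Cl19 d2 replicate 3 (adjusted p = 0.0681). Fgb, a fibrinogen chain, had a smaller change in Cl19 (-2.004, adjusted p = 0.0484), which was lost on floored values (-0.67, adjusted p = 0.79) and on leaving out any of 9 single arrays. The Fgb call was also lost on the 11 arrays alone (adjusted p = 0.0533), and its other probe gave -0.80 (adjusted p = 0.785). Of 14 pluripotency factors 1 was smaller and 0 larger (median -0.22), namely Pou5f1. On floored values Prdm1 (2.857, adjusted p = 0.0224) and Lin28a (1.681, adjusted p = 0.0353) also passed the limma test, as larger. Of 33 tight junction and epithelial genes 3 were larger and 0 smaller (median 0.27). Krt7, a keratin of simple epithelia, measured 4.52, 4.63 and 5.12 in Cl19 at d0 and 12.90 and 12.61 at d2, and 4.75, 3.76 and 4.02 and then 6.48, 5.85 and 6.71 in 3c3. It rose 256-fold in Cl19 and 4.5-fold in 3c3 (5.83, SE 0.761, adjusted p = 0.000208; 3.58 and 0.624 with the left-out array), was high at d2 on the Cl19 arrays used and on no 3c3 array, and was also the only call among 11 trophoblast-type factors (median 0.50). On floored values the trophoblast-type median was that of Gata3 (0.21). The transcription factor Grhl2 rose at least 20-fold in Cl19 (5.84, adjusted p = 0.000801), though its other probe gave 1.60 (adjusted p = 0.407), and the protease Tmprss2 rose 274-fold in Cl19 and 72.6-fold in 3c3 (1.92, adjusted p = 0.0177). The Tmprss2 call was lost without Cl19 d2 replicate 3 or 3c3 d2 replicate 2, without the slide of higher background (adjusted p = 0.0755) and with scaling to the 75th percentile (0.0665).

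Of 35 cell cycle and replication genes 2 were larger and 1 smaller (median 0.04), all inhibitors of cyclin-dependent kinases. Cdkn2b, which encodes p15, measured 3.51, 3.16 and 3.85 in Cl19 at d0 and 10.37 and 9.97 at d2, and 3.4, 2.67 and 3.18 and then 6.00, 4.78 and 5.32 in 3c3. It rose 101-fold in Cl19 and 4.88-fold in 3c3 (4.38, SE 0.629, adjusted p = 0.000441; 2.75 and 0.596 with the left-out array), and the neighbouring Cdkn2a rose 8.06-fold in Cl19 (2.86, adjusted p = 0.0242). All Cl19 d2 arrays but the left-out array, at 5.29, stood above 3c3 for Cdkn2b. Cdkn2a and Cdkn1c (-1.99, adjusted p = 0.0464; -3.06 and 0.177 with the left-out array) lost their calls on leaving out any of 8 and of 11 single arrays. Of 26 interstitial matrix genes Spon2 was larger (2.17, adjusted p = 0.0287; list median -0.06), of 23 glycolysis and hypoxia genes Pfkfb3 (2.77, adjusted p = 0.000441; -0.10), and of 25 immediate early and stress genes Ier2 (0.93, adjusted p = 0.00585; -0.03), and none was smaller. Spon2 was lost on leaving out any of 7 single arrays, and Ier2 without Cl19 d2 replicate 2 (adjusted p = 0.0676). No member was called among 14 epithelial-mesenchymal switch factors (median 0.05), 20 genes of cholesterol synthesis (-0.14), 12 cilium genes (0.38), 20 notch and hedgehog genes (0.19), 8 haematopoietic markers (0.20) or 12 fibroblast markers (0.07). On floored values, where a gene at background on every array used gives -0.27, the switch factor, haematopoietic and fibroblast medians were negative. The haematopoietic median then lay between Cd68 (-0.14) and Tyrobp (-0.08), and that of notch and hedgehog between Ptch1 (-0.01) and Jag2 (0.07).

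Of 26 smooth muscle contractile genes and their regulators 3 were larger in Cl19 and 0 smaller (11.5%; median 0.71), namely Smarcd3, Myl9 and Tagln. Smarcd3, the SWI/SNF chromatin remodelling subunit Baf60c (chr4:5959631-5959690), measured 5.64, 5.86 and 6.04 in Cl19 at d0 and 12.67 and 12.31 at d2, and 6.67, 6.32 and 6.49 and then 10.46, 9.68 and 10.04 in 3c3. It rose 100-fold in Cl19 and 11.8-fold in 3c3 (difference 3.08, SE 0.409, adjusted p = 0.000233; 2.22 and 0.238 with the left-out array). The lines did not overlap at d2, the left-out array, at 9.90, lay in the 3c3 range, and at d6 the difference was 0.86 (adjusted p = 0.144). Tagln, the actin-binding protein transgelin (chr8:48902736-48903116), measured 9.39, 9.19 and 9.35 in Cl19 at d0 and 14.13 and 13.97 at d2, against 8.95, 8.61 and 8.93 and then 11.74, 12.39 and 12.30 in 3c3. It rose 26.7-fold and 9.95-fold (1.42, SE 0.29, adjusted p = 0.00745; 0.82 and 0.857 with the left-out array), and lost the call without Cl19 d2 replicate 2 (adjusted p = 0.0557) and with scaling to the 75th percentile (0.0577). Tagln was higher in Cl19 at d2 on each of the arrays used. The regulatory light chain Myl9 rose 11.5-fold in Cl19 and 1.92-fold in 3c3 (2.58, adjusted p = 0.00145).

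Pou5f1, the pluripotency factor Oct4 by which the clones were described, measured 10.31, 10.31 and 10.22 in Cl19 at d0 and 4.58 and 4.59 at d2, and 11.47, 11.63 and 11.49 and then 8.23, 8.69 and 8.56 in 3c3. It fell 51.9-fold in Cl19 and 8.22-fold in 3c3 (difference -2.66, SE 0.592, adjusted p = 0.0142; -1.26 and 1 with the left-out array, which measured 8.77). Both lines fell, and the Cl19 d2 arrays used lay below all 3c3 arrays. The call was lost without Cl19 d2 replicate 2 or 3 (adjusted p up to 0.067), without the slide of higher background (0.0862) and on values without normalization (0.0532). Of 18 genes taken from those the study named, 15 were tested and 4 were called: Smarcd3, Tagln, Sox4 and Pou5f1. Since the study chose genes on these samples, this count is not independent evidence, and Acta2, a further marker of the study, was not analysed here. Sox4, a transcription factor, rose 23.2-fold in Cl19 and 5.3-fold in 3c3 (2.13, adjusted p = 0.0172), and lost the call without Cl19 d2 replicate 2, 3c3 d2 replicate 2 or 3c3 d0 replicate 3. It was also lost without the slide of higher background (adjusted p = 0.127) and with scaling to the 75th percentile (0.0674).

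The other 11 tested did not pass the test of the difference. The factors Cited4 and Foxj1 had differences of 2.53 (adjusted p = 0.139) and 2.65 (0.145), and Cited4 passed with the slide as a block (2.62, adjusted p = 0.0435). Foxj1 passed on the 11 arrays alone (2.65, adjusted p = 0.0243). The contractile genes Cnn1 and Smtn had differences of 0.78 (adjusted p = 0.187) and 0.37 (0.716), and Srf, serum response factor, of 0.52 (0.406). Eomes, Foxc2 and Zeb1 gave 0.62, 0.23 and -0.30 (adjusted p = 0.997, 0.998 and 0.951), and Lhx1, which started near background in 3c3, gave -0.82 (adjusted p = 0.949). With normexp Lhx1 was called in the other direction (2.08, adjusted p = 0.0421). Myocd stayed near background in all rMAPC groups, and Gapdh, the glycolytic enzyme used as a reference, gave 0.13 (adjusted p = 1). Foxc1, Cnn2 and Myh11 had no tested probe with 1 symbol here.

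Markers of other cell types moved in part. Of 7 neural markers tested 3 were larger in Cl19 (median 1.23): Stmn2 and Tubb3, cytoskeletal proteins of neurons, fell 33.1-fold and 7.32-fold in 3c3 (differences 4.11 and 3.00, adjusted p = 0.0101 and 0.0252), and the intermediate filament Nes rose 1.98-fold in Cl19 (1.23, adjusted p = 0.0367). The other 4 were not called and went both ways, with 2.23 for Gfap, -0.11 for Neurog2, -0.40 for Pax6 and -1.61 for Syp, which rose in 3c3 (1.97, called). Gfap was near background, and its difference was -0.18 on floored values. The list median on floored values was that of Neurog2 (-0.11). Stmn2 was lost without Cl19 d2 replicate 2 (adjusted p = 0.0751), Tubb3 with the slide as a block (0.0525) and on leaving out any of 6 single arrays, and Nes on leaving out any of 8 single arrays. The summed intensity of the 10 neural markers on the array was 6662, 6665 and 6450 in Cl19 at d0 and 12810 and 9130 at d2, and 8554, 6429 and 7205 and then 5971, 4089 and 5660 in 3c3. On the left-out array the sum was 5316. Nes was the most abundant, and Neurod1, Pax6, Map2 and Elavl3 were not above background on any of these arrays. Of 10 endothelial markers 2 were smaller in Cl19 (median -0.65): the receptor Tek fell at least 11-fold in Cl19 and 1.88-fold in 3c3 (-2.55, adjusted p = 0.000366), and the VEGF receptor Flt1 rose 6.42-fold in 3c3 (-2.44, adjusted p = 0.000441; -2.15 and 0.018 with the left-out array). The other probe of Flt1 gave -0.65 (adjusted p = 0.559). The uncalled endothelial markers went both ways, from -1.22 for Tie1 (adjusted p = 0.256) to 1.89 for Kdr (0.513). The 13 endothelial markers summed to 2579, 2669 and 2839 in Cl19 at d0 and 1797 and 2230 at d2, and to 1922, 1612 and 1709 and then 2216, 2239 and 2503 in 3c3. On the left-out array the sum was 2404. Egfl7 was the most abundant, and Emcn and Erg were not above background on any array. The 12 fibroblast markers summed to 117.1, 98.19 and 132.5 in Cl19 at d0 and 332.3 and 381.6 at d2, with 131.3 on the left-out array, and to 133, 97.9 and 149.4 and then 128.2, 107.4 and 166.2 in 3c3. Their most abundant gene, Col1a1, rose in Cl19 (2.25, called) and changed by 0.04 in 3c3, but the difference was not called (2.21, adjusted p = 0.125), and 7 of the 12 were not above background on any of these arrays. The 13 haematopoietic markers on the array summed to 473.2, 411.6 and 484.2 in Cl19 at d0 and 1284 and 1509 at d2, and to 463.4, 413.1 and 491.9 and then 1333, 1048 and 1199 in 3c3. On the left-out array the sum was 1193. Coro1a was the most abundant and rose in both lines. The part of such cells in the differences was not tested.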

How the data were processed

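Labelled RNA was hybridised to 1-colour rat arrays, and the authors deposited the feature tables (gProcessedSignal, intensity) and a series table, in which the values the authors deposited are log2 of the same intensity. The submitters' processing notes name Agilent Feature Extraction 10.1.1.1. Intensities were set to log2 and quantile-normalized between arrays, features marked as outliers were dropped after that, and probes on several features (263) were averaged. Of 41012 gene probes, 24673 were tested, each with a signal well above background in all arrays of 1 or more groups. Probes were named by accession (16506), gene name (3537), description (71) or synonym (1055); 21169 had 1 symbol, 231 several and 19612 none.

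A limma 3.58.1 fit (R 4.3.3; tables read with Python 3.11.15) of 9 group means over 25 arrays gave each change, the difference of changes and Benjamini-Hochberg adjusted p, with a threshold of 0.05. It was tested on simulated data, where smaller differences were often not called, so a difference that was not called may still exist. After subtracting group means, arrays of d0 and d2 on 1 slide correlated above 0.1 in 3 of 3 slides of Cl19 (0.155 to 0.492) and 3 of 3 of 3c3 (0.417 to 0.745), so slides pair the arrays; over all days 17 of 18 and 18 of 18 pairs did. Genes were named by rule: the 8 largest differences per direction and 4 per class and direction, ranked on floored values, called on these and on the values as they were, with within-slide changes of Cl19 beyond all of 3c3, up to 4 called genes per list for 23 lists, and the 18 genes of the study, of which 85 are given; 2 others are not reported here. The lists cover TGF-β and Nodal, PDGF, BMP, Wnt and FGF, mesendoderm, primitive and visceral endoderm, pluripotency, smooth muscle, epithelium, epithelial-mesenchymal switch, matrix, cell cycle, cholesterol, glycolysis, immediate early genes, cilium, trophoblast, notch and hedgehog, and endothelial, haematopoietic, fibroblast and neural markers. Members and lists were chosen with earlier results of these data known. Alternatives were the array kept, the 11 arrays alone, the slide as a block, scaling to the 75th percentile, normexp with an offset of 50, values without normalization, no filter, a floor on dim values (1.52 to 4.20 log2), the slide of higher background left out, each array of d0 and d2 left out and a t-test.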

Additional observations from a re-analysis of the deposited data

Results flagged for a closer look

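The results below are given again because the d2 changes of the lines differed by a test of the difference itself, with the array labelled Cl19 d2 replicate 1 left out. That test called 535 probes as larger and 327 as smaller in Cl19. By class, 46 changes came earlier in Cl19, 186 were present in Cl19 and not 3c3, 10 came earlier in 3c3 and 83 were present in 3c3 and not Cl19. Genes are in alphabetical order with fitted differences in log2, which are not measured sizes where a group lies below background. On floored values Jakmip1 gave 5.88, Fzd7 1.22, Pdgfb 0.81 and Fgb -0.67. The changes were larger in Cl19 for A2m 5.98, Acvr2b 1.25, Afp 5.49, Apob 4.22, Bmp4 2.43, Bmper 3.02, Cck 5.01, Cd93 4.495, Cdkn2a 2.86 and Cdkn2b 4.38. Also larger were Celsr2 3.398, Col9a3 1.80, Crispld2 5.80, Cxcr4 6.90, Elavl2 2.94, Elavl4 4.91, Fbln2 5.33, Fgfr2 2.31, Fzd1 3.08 and Fzd5 2.97. To these belong Fzd7 2.95, Grhl2 5.84, Gsc 7.07, Id3 1.76, Ier2 0.93, Jakmip1 8.91, Khdrbs3 4.68, Krt7 5.83, Lefty2 7.40 and Matn4 3.84. Others were Myl9 2.58, Nes 1.23, Ntm 6.33, Otx2 4.30, Pdgfb 2.52, Pdlim3 5.66, Pfkfb3 2.77, Pmepa1 3.44, Rgs8 6.51 and Rtn4rl1 3.23. The list of larger changes closes with Sik1 3.33, Smarcd3 3.08, Sox4 2.13, Spon2 2.17, Stmn2 4.11, Tagln 1.42, Tmem130 4.55, Tmprss2 1.92 and Tubb3 3.00. The changes were smaller in Cl19 for Aebp1 -2.96, Capn6 -2.90, Cdkn1c -1.99, Daam2 -2.94, Eps8l3 -3.33, Fgb -2.004, Flt1 -2.44, Htr3a -3.33 and Lamb1 -1.21. Also smaller were Lcmt1 -0.67, Lgals2 -4.12, Lyve1 -2.90, Myo10 -1.34, P2rx2 -3.23, Phactr1 -2.70, Pi16 -2.94, Pou5f1 -2.66 and Psmb8 -2.98. The list of smaller changes closes with Psmb9 -3.17, Sipa1l1 -0.68, Sparc -1.22, Stoml1 -0.71, Tek -2.55, Tmem263 -1.01 and Tnfrsf14 -3.89. What lies behind these differences was not tested.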

How the results depend on the processing

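Counts are given in the order larger in Cl19, smaller in Cl19, earlier in Cl19, in Cl19 and not 3c3, earlier in 3c3, and in 3c3 and not Cl19. With the array labelled Cl19 d2 replicate 1 kept they were 34, 43, 1, 20, 0 and 17 by limma. At an unadjusted p the 0 was 36, against 59 with the array left out. With that array kept and the slide as a block, an alternative chosen after seeing the data, they were 55, 82, 1, 30, 0 and 34. The 11 arrays alone gave 1101 larger and 1094 smaller changes. The slide as a block gave 775, 571, 65, 273, 27 and 155. Normexp gave 505 smaller changes. Without the slide of higher background 319, 123, 102, 5 and 27 were called, with the third count, 46, as before. Leaving out single arrays gave 325 to 459, 136 to 256, 24 to 49, 96 to 168, 2 to 10 and 39 to 63; Cl19 at d2 then has 1 array in some fits, assumed to vary like the other groups. Scaling to the 75th percentile, values without normalization, no filter and floored values moved no count by more than 1.5 times. The t-test, run for the first 2 counts only, gave 413 larger and 423 smaller changes.

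Of 85 named genes, 62 were no longer called and 2 changed sign with the array kept, and 26 were no longer called without the slide of higher background. The block ended the call of Tubb3, gave Cited4 a call and changed no other call. The difference of changes turned for Lhx1 (2.08 with normexp, called at adjusted p = 0.0421, and 0.0209 floored), Eomes (-0.17 with the array kept, with or without the block), Zeb1 (0.0056 with the array kept, with or without the block, and 0.11 with normexp), Myocd (-0.16 floored) and Gapdh (-0.0258 with scaling to the 75th percentile; -0.0581 to 0.314 on leaving out single arrays). The cause was not tested. Between 49.5% and 58.3% of probes were well above background on each array of d0 and d2, and folds of dimmer genes are bounds. Each line is 1 clone and the lines were scanned on separate days.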
